A study of Mus musculus with 8 samples.

Results

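Genes of DNA replication and S phase were followed in medulloblastomas, tumours of the cerebellum, taken from mice at postnatal day 15. The group was set as a list of 43 genes, each read from the probe set whose platform annotation gives its symbol alone, and from the probe set with the highest mean where there were several. Of the 43 genes, 42 had such a probe set, among 22180 genes in the whole series, and all 42 lay above the filter on dim genes that left 15526 genes for testing. Rfc4 shared its only probe set with another symbol and was not analysed here.

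In every mouse of either group a Cre under the promoter of Math1 (Atoh1), written Math1-Cre, acts on the SmoM2 allele and switches on an active form of Smoothened in granule neuron precursors. The 4 tumours of the genotype Math1-Cre/SmoM2/Bcl2l1 f/f also lost Bcl2l1 in the cells in which Cre acts, and the 4 control tumours were Math1-Cre/SmoM2 alone. A further label field reads Bcl2l1 deleted for all 8 samples and was not used. Animals received no agent, the design text speaks of replicate animals, and total RNA of each tumour was read on 1 Affymetrix array. Expression is given as log2 RMA values, and the number of arrays limits the precision. Cre acts in the granule lineage and the RNA came from whole tumours, so vessels, glia and macrophages contribute RNA in which the allele is intact. In such bulk RNA, fewer cells of a type and less RNA per cell cannot be told apart.

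Replication starts when the origin recognition complex, with Cdc6 and Cdt1, loads the ring-shaped MCM helicase on DNA in G1. At the start of S phase Cdc45 and the GINS complex join the ring to make the active helicase, primase and DNA polymerase alpha lay down primers, and the RFC clamp loader places the PCNA ring that holds the other polymerases on DNA. Transcription factors of the E2F family switch these genes on as cells leave G1, and Sonic hedgehog signalling is known to drive this programme in granule neuron precursors. The genes are therefore widely used to follow proliferation in this tumour.

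Promoter sequence of 6 of the genes is shown because, of the motifs searched, E2F-type sites differed most in share between the group and other genes. The bases are from RefSeq (build GRCm38.p6), run 5′ to 3′ on the strand of the gene and end at the base before the annotated start, and capitals mark matches to the E2F-type sites on either strand. Of the 6, Rfc3 had the largest difference between the genotypes, Prim1 the next largest, and Pcna the smallest. The windows are chr5:151651209-151651358 for Rfc3 (minus strand), chr1:128359706-128359855 for Mcm6 (minus strand), chr4:108579304-108579453 for Orc1 (plus strand), chr11:98908001-98908150 for Cdc6 (plus strand), chr10:128015065-128015214 for Prim1 (plus strand) and chr2:132253181-132253330 for Pcna (minus strand).
Rfc3: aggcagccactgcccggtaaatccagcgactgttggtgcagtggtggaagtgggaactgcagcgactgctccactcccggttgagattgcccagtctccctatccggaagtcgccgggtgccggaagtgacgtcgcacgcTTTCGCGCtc
Mcm6: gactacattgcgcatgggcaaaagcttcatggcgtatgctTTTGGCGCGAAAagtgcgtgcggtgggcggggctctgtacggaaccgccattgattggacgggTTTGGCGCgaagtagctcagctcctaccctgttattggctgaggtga
Orc1: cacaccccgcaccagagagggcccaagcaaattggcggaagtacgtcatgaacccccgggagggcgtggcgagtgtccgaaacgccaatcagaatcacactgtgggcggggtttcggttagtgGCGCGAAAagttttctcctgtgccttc
Cdc6: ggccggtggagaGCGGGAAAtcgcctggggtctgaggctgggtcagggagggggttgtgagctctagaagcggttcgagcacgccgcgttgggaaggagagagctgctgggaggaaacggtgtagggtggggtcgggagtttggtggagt
Prim1: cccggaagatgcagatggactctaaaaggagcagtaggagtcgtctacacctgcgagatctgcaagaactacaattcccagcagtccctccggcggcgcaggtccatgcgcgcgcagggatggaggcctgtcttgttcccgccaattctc
Pcna: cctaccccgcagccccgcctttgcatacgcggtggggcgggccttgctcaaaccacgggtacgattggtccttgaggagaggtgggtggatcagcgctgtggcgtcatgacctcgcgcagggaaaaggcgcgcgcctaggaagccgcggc

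The sites searched were TTTCCCGC, TTTCGCGC, TTTGCCGC and TTTGGCGC on both strands, in windows of 250 bases before to 50 bases after a gene's start. RefSeq windows were found for 34 of the 42 measured genes, and 15 of these (44.1%) held at least 1 such match in any of their windows. Among 12094 tested genes with a window the share was 4.2% (506 genes), and it was 2.3% of all 32851 windows of the table. The CCAAT box, bound by NF-Y, was present for 64.7% of the replication genes and 41.8% of tested genes, and the GGGCGG box of Sp1-type factors for 79.4% and 63.5%. The CHR element TTTGAA, known from genes of G2 and mitosis, was present for 17.6% and 14.3%. In Mcm6, which encodes a subunit of the helicase ring, 3 matches lay before the start, at bases -110, -106 and -47, and the first pair overlapped. In Rfc3 1 match began at base -10 and another, not printed, at the start itself. The windows of Prim1 and Pcna held none of these letters, which says nothing of the factors that act there. Over the 15 genes with a match the median relative log2 change was 0.26 (0.03 to 0.83), and over the 19 without a match it was 0.24 (-0.15 to 0.82), so members with and without these letters covered much the same range.

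**Figure D1:**
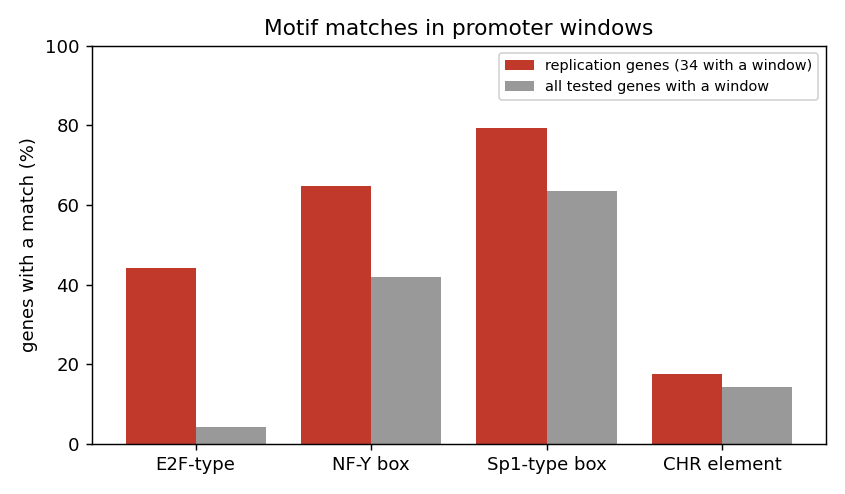
Share of genes (percent, vertical axis) whose RefSeq promoter window holds each motif, for the 34 replication genes with a window and for all tested genes with a window. E2F-type matches stood at 44.1% against 4.2%, the widest ratio of the 4 motifs.

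Bcl2l1 itself read 5.46, 5.46, 5.69 and 5.32 in Bcl2l1-deleted replicates 1 to 4 and 6.88, 6.57, 6.93 and 6.98 in control replicates 1 to 4, so the arrays matched their titles (adjusted p = 0.00509, limma). None of 12 markers of granule neuron progenitors and tumour cells passed the test, and 9 of them lay below the median tested gene. Atoh1, at a mean of 11.63 in the Bcl2l1-deleted tumours and 11.17 in the controls, had the highest relative change of the 12 (0.29). Their median relative change was -0.27. Control replicate 2 stood apart, with correlations of 0.881 to 0.925 with the other arrays over all probe sets. Its interquartile range over named genes was 2.40, where control replicates 1, 3 and 4 had 3.29 to 3.50 and Bcl2l1-deleted arrays had 3.59 to 3.66. For the genes of chemosensory receptors, a gauge of array background in brain, the median was 3.60 on that array; control replicates 1, 3 and 4 had 2.94 to 3.09, and Bcl2l1-deleted arrays 2.79 to 2.92. Background and range thus separated the arrays by genotype, and their part in the results below was not tested beyond the settings named. Across the genes tested the median difference, Bcl2l1-deleted minus control, was 0.17, and changes called relative have this value taken off, while their SE and adjusted p are those of the fitted change.

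The comparison of the genotypes asks whether tumours without Bcl2l1 differ in the expression of the replication machinery. Of the 42 replication genes 2 rose, Rfc3 and Prim2, none fell, and 40 did not pass an adjusted p of 0.05 (limma, Benjamini-Hochberg over 15526 genes). Over all tested genes 4.93% passed towards higher expression, 1.60% towards lower and 6.52% in either direction, so the share of replication genes called higher, 4.76%, was at the background. Among the 10455 tested genes whose mean lay within the range of the replication genes, 5.60% passed towards higher expression. At an unadjusted p under 0.05, 24 replication genes were higher and none lower, where 23.1% of all tested genes were higher. All 42 fitted differences were above 0, where 10470 of all 15526 tested genes and 8260 of the 10455 in the same range of levels were. The median of the 42 was 0.44, against 0.17 over all tested genes and 0.26 over tested genes in that range. Relative to the median tested gene, 38 were above 0 and 4 below, from -0.15 to 0.83, with a median of 0.26. On that relative scale 6376 of the 10455 genes in the same range of levels were above 0.

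The groups did not overlap for 21 of the 42 genes, each with every Bcl2l1-deleted array above every control array. Over all tested genes this ordering held for 19.0%, the groups did not overlap in either direction for 23.4%, and within the same range of levels the ordering held for 23.8%. The count of separated genes moved with the scaling. Centring each array on the median of the genes tested left 4 replication genes, Cdc45, Orc1, Prim1 and Rfc3, where 7.25% of all genes were separated in this direction. Under that centring 1 replication gene, Pcna, lay lower on every Bcl2l1-deleted array, where 12.9% of all genes did so. Centring on the median of all probe sets gave 28 genes (29.2% over all genes), and quantile normalization gave 14 (17.2% over all genes). Leaving out control replicate 2 gave 21 (20.2% over all genes), and doing so together with centring on the tested genes gave 7 (10.0% over all genes). The counts of separated genes given by role below are those of the deposited scale and are to be read against the 19.0%. Control replicate 2 gave the lowest of the 8 values for 34 of the 42 replication genes, as it did for 54.6% of all tested genes.

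**Figure D2:**
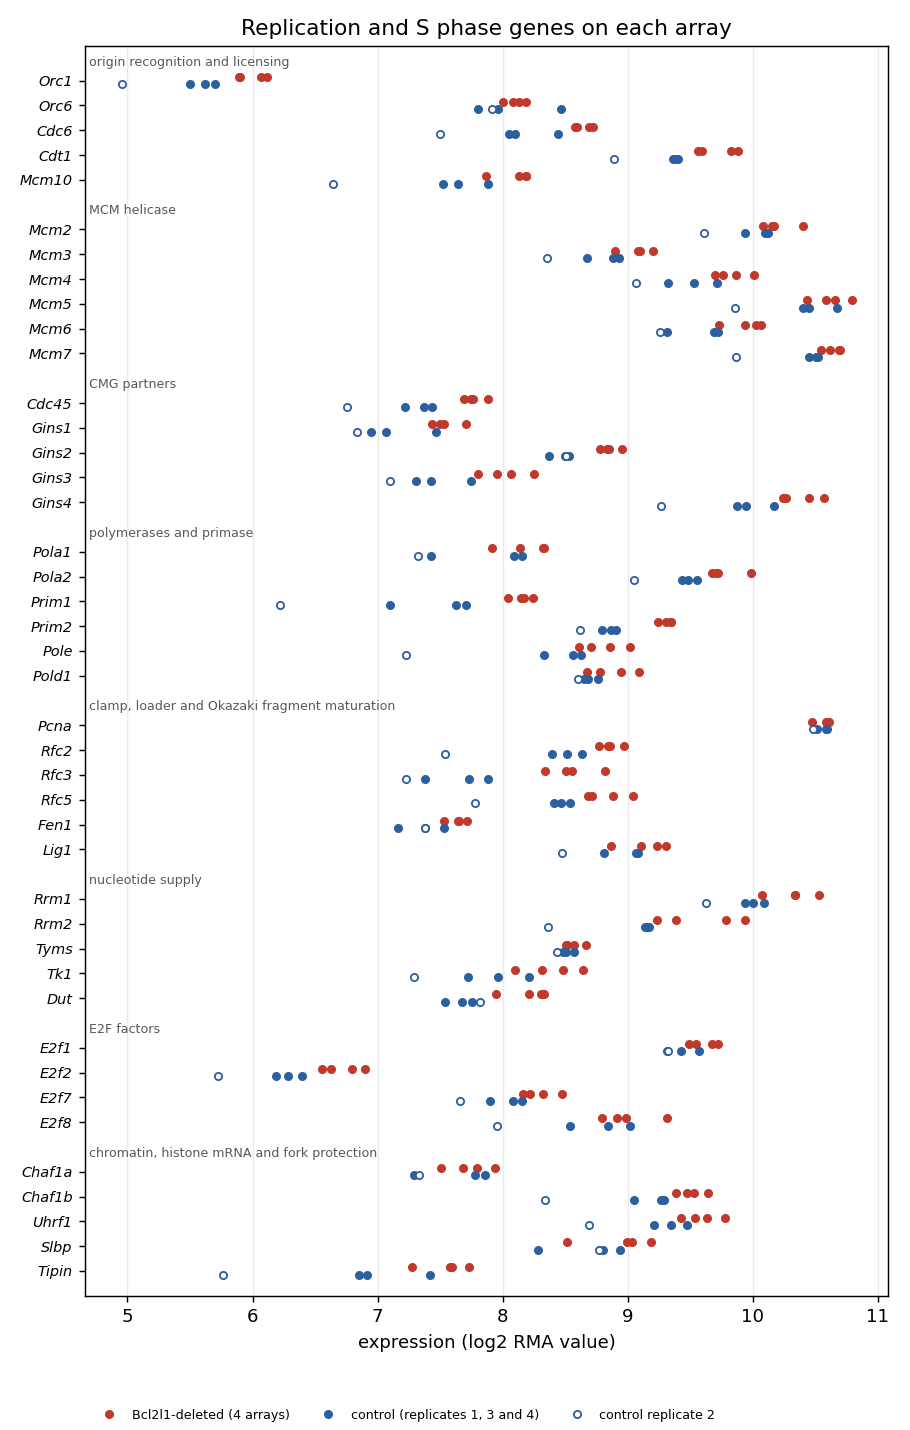
Log2 RMA value (horizontal axis) of each of the 42 replication genes on each array, grouped by role, with Bcl2l1-deleted arrays in red, controls in blue and control replicate 2 as an open circle. The open circle is the lowest point for 34 of the 42 genes, and the red points lie wholly to the right of the blue ones for 21.

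A measure that does not depend on the scale of an array is the rank of a gene among all genes tested on that array. The median percentile of the 42 replication genes was 86.4, 84.7, 82.8 and 86.4 on Bcl2l1-deleted replicates 1 to 4 and 80.3, 83.5, 82.5 and 82.7 on control replicates 1 to 4. Bcl2l1-deleted replicates 1, 2 and 4 ranked the group above every control, while replicate 3 lay within the range of the controls. By rank, control replicate 2 was the highest of the controls. Gene by gene, on the log2 scale, the order of the controls differed from that by rank. Bcl2l1-deleted replicate 3 had the lowest value of its group for 36 of the 42 genes, where it did so for 29.8% of all tested genes, and replicates 4 and 1 had the highest value for 21 and 15, where they did so for 29.2% and 20.8% of all tested genes. Among the controls, replicate 2 was lowest for 35 genes and for 61.8% of all tested genes, and replicate 3 was highest for 24 genes and for 23.6% of all tested genes.

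**Figure D3:**
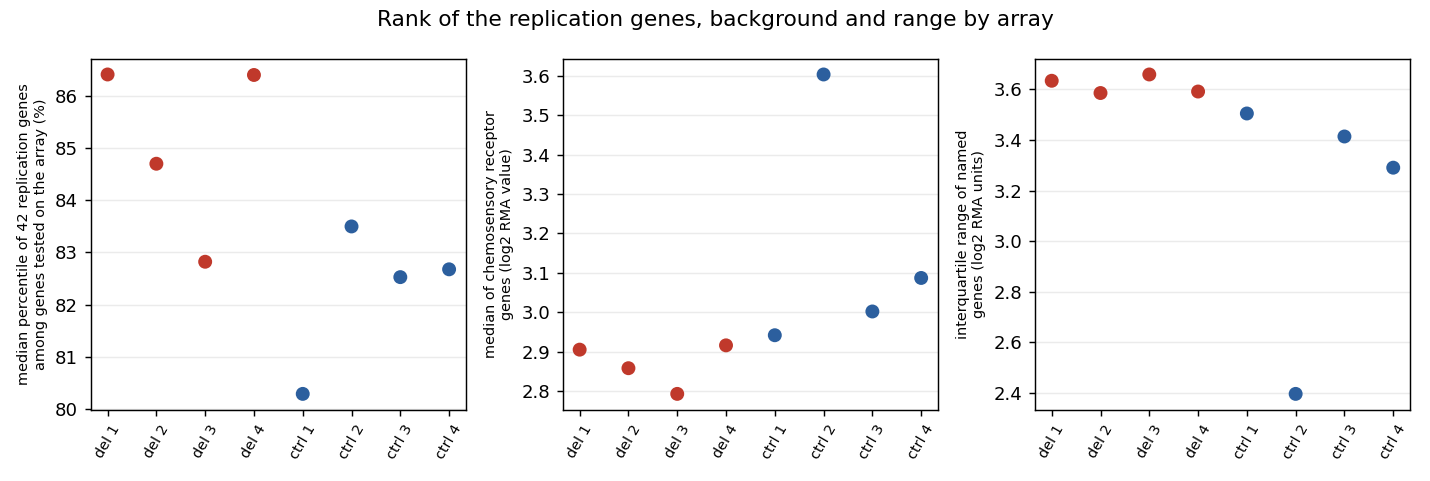
For each array (del, Bcl2l1-deleted, red; ctrl, control, blue), the median percentile of the 42 replication genes among the genes tested (left), the median log2 RMA value of chemosensory receptor genes (middle) and the interquartile range of named genes in log2 units (right). The percentile of Bcl2l1-deleted replicate 3, 82.8, falls among the controls at 80.3 to 83.5, whereas background and range separate all 4 red points from all 4 blue ones.

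The factors of origin recognition and licensing came first. None of the 5 genes Orc1, Orc6, Cdc6, Cdt1 and Mcm10 passed. Groups did not overlap for 3 of them, against 19.0% of all genes, and for Orc1 alone after centring on the tested genes. Mcm10, which helps to activate the loaded helicase, read 8.13, 8.19, 7.87 and 8.19 in Bcl2l1-deleted replicates 1 to 4 and 7.52, 6.65, 7.88 and 7.64 in control replicates 1 to 4. Control replicate 2 lay far below the rest and control replicate 3 reached into the Bcl2l1-deleted range (relative log2 change 0.50, SE 0.24, adjusted p = 0.102, limma). Leaving out control replicate 2 took the fitted change of Mcm10 from 0.67 to 0.41. Cdc6, the loader of the helicase, read 8.58, 8.69, 8.59 and 8.72 against 8.05, 7.50, 8.10 and 8.44, with no overlap (0.45, SE 0.19, adjusted p = 0.0723). Orc1, a subunit of the origin recognition complex, read 5.90, 6.11, 5.89 and 6.07 against 5.62, 4.95, 5.50 and 5.70, again with no overlap (0.38, SE 0.18, adjusted p = 0.0836). For Cdt1, the partner of Cdc6, the relative change was 0.29 (adjusted p = 0.104). Orc6 was among the 4 genes below the median gene, at -0.11 relative, with a 95% interval of the fitted difference from -0.31 to 0.44, and control replicate 3 held its highest value, 8.46.

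The 6 subunits of the MCM helicase differed little. None passed, and their relative changes lay between 0.09 for Mcm2 and 0.27 for Mcm6. Mcm6 read 10.03, 9.94, 9.73 and 10.07 in Bcl2l1-deleted replicates 1 to 4 and 9.31, 9.26, 9.69 and 9.73 in control replicates 1 to 4, where Bcl2l1-deleted replicate 3 and control replicate 4 all but touched (SE 0.17, adjusted p = 0.108, limma). Mcm4 read 9.87, 9.76, 9.70 and 10.01 against 9.32, 9.06, 9.72 and 9.53, and control replicate 3 overlapped (relative change 0.25, SE 0.17, adjusted p = 0.128). Mcm3 read 9.21, 9.10, 8.90 and 9.08 against 8.67, 8.36, 8.88 and 8.93, with 3 of 4 Bcl2l1-deleted arrays above every control (0.19, SE 0.17, adjusted p = 0.168). Mcm5 stood at 0.10 (adjusted p = 0.334). In Mcm7 the groups did not overlap although the relative change was only 0.13, since the arrays of each group other than control replicate 2 lay close together. Leaving out that array took the fitted changes of Mcm2, Mcm5 and Mcm7 from 0.26, 0.27 and 0.30 to 0.15, 0.11 and 0.15. The 95% intervals of the fitted differences reached at most 0.81 in the helicase, for Mcm6.

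The partners that turn the ring into the active helicase, Cdc45 and the 4 GINS subunits, had relative changes from 0.21 to 0.45, none of them past the test. Groups did not overlap for 4 of the 5, against 19.0% of all genes, and for Cdc45 alone after centring on the tested genes. Gins3 read 8.25, 8.07, 7.80 and 7.96 in Bcl2l1-deleted replicates 1 to 4 and 7.30, 7.10, 7.43 and 7.75 in control replicates 1 to 4 (0.45, SE 0.18, adjusted p = 0.0574, limma). Cdc45 read 7.88, 7.69, 7.75 and 7.77 against 7.37, 6.75, 7.43 and 7.22 (0.41, SE 0.17, adjusted p = 0.0651). Gins4 read 10.57, 10.45, 10.24 and 10.26 against 10.17, 9.27, 9.88 and 9.94 (0.40, SE 0.20, adjusted p = 0.0947). For Gins3, Cdc45 and Gins4 the SD of the Bcl2l1-deleted arrays was 0.19, 0.08 and 0.16, and that of the controls 0.27, 0.31 and 0.38. Control replicate 2 was the lowest array in each. Gins2 was the exception to the low reading of that array, at 8.51 there and 8.37 to 8.53 on the other controls, with 8.78 to 8.96 in the Bcl2l1-deleted tumours (0.21, SE 0.13, adjusted p = 0.0930). Gins1 overlapped through control replicate 1, at 7.47 (0.29, adjusted p = 0.102).

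Among primase and the polymerases, Prim2 passed. It encodes the large subunit of primase, which with Prim1 makes the RNA primers of new strands. Prim2 read 9.34, 9.35, 9.24 and 9.31 in Bcl2l1-deleted replicates 1 to 4 and 8.80, 8.62, 8.87 and 8.91 in control replicates 1 to 4, with no overlap. Its mean was 9.31 ± 0.05 (SD, n = 4) against 8.80 ± 0.13 (SD, n = 4), a rise of 0.34 relative to the median gene (SE 0.14, adjusted p = 0.0490, limma; 1.27-fold relative and 1.43-fold as fitted). The call lay at the threshold and was lost in 17 of 23 alternatives, with adjusted p between 0.00986 and 0.200, among them those that left out Bcl2l1-deleted replicate 1, 2, 3 or 4 (0.147, 0.144, 0.0917 and 0.116), those without control replicate 1, 3 or 4 (0.0511, 0.0712 and 0.0928) and after centring each array on the tested genes (0.200). Prim1, the catalytic subunit, had the next largest difference after Rfc3 but a wider spread. It read 8.25, 8.14, 8.05 and 8.17 against 7.71, 6.22, 7.63 and 7.10, with no overlap, and control replicates 2 and 4 lay below the other controls (0.82, SE 0.28, adjusted p = 0.0607). Without control replicate 2 Prim1 passed (fitted change 0.68 in place of 0.99, adjusted p = 0.0256), as it did without control replicate 1 (0.0314), but not without control replicate 4 (0.127).

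Pole, the catalytic subunit of the leading strand polymerase epsilon, read 8.86, 8.70, 8.61 and 9.02 in Bcl2l1-deleted replicates 1 to 4 and 8.57, 7.23, 8.33 and 8.63 in control replicates 1 to 4, with overlap (relative change 0.44, SE 0.28, adjusted p = 0.170, limma). Its fitted change was 0.29 without control replicate 2 and 0.61 with it. The subunits of polymerase alpha, Pola1 and Pola2, stood at 0.26 and 0.22 relative (adjusted p = 0.204 and 0.136). Pold1, the catalytic subunit of the lagging strand polymerase delta, stood at 0.03, with a 95% interval of the fitted difference from -0.12 to 0.52.

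Rfc3, a subunit of the clamp loader, had the largest change of all 42 genes. It read 8.82, 8.56, 8.34 and 8.50 in Bcl2l1-deleted replicates 1 to 4 and 7.88, 7.23, 7.38 and 7.73 in control replicates 1 to 4. Every Bcl2l1-deleted array lay above every control. The mean was 8.56 ± 0.20 (SD, n = 4) against 7.55 ± 0.30 (SD, n = 4), a rise of 0.83 relative to the median gene (SE 0.18, adjusted p = 0.0197, limma; 1.78-fold relative and 2.00-fold as fitted; exact permutation test, two-sided, p = 0.0286, the smallest that 4 against 4 arrays allow). The fitted change lay between 0.74 and 1.17 in the 23 alternatives and the call held in 19 of them. Leaving out Bcl2l1-deleted replicate 1, 2 or 4 ended it (adjusted p = 0.0845, 0.0734 and 0.0511) as did a plain linear model (0.0842), and it held without control replicate 2 (fitted change 0.89, adjusted p = 0.0126) and after centring each array on the tested genes (fitted change 0.74, adjusted p = 0.0277).

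The other subunits of the clamp loader did not pass. Rfc2 read 8.86, 8.77, 8.85 and 8.97 in Bcl2l1-deleted replicates 1 to 4 and 8.40, 7.54, 8.63 and 8.51 in control replicates 1 to 4, without overlap (relative change 0.42, SE 0.23, adjusted p = 0.114, limma), and its fitted change was 0.35 without control replicate 2 and 0.59 with it. Rfc5 read 9.05, 8.89, 8.69 and 8.72 against 8.41, 7.78, 8.54 and 8.47, also without overlap (0.36, SE 0.19, adjusted p = 0.100). Whether Rfc3 differed more than its partners was not tested. Pcna, the sliding clamp that the RFC complex loads, was the most even gene of the group. Its probe set read 10.61, 10.60, 10.48 and 10.59 in the Bcl2l1-deleted tumours and 10.58, 10.48, 10.60 and 10.52 in the controls. The groups overlapped throughout and the relative change was -0.15 (adjusted p = 0.908), with a 95% interval of the fitted difference from -0.26 to 0.31. Control replicate 2 was the lowest control for Pcna too, but by little. Fen1, the nuclease that trims Okazaki fragments, and Lig1, the ligase that joins them, had relative changes of 0.10 and 0.10 (adjusted p = 0.214 and 0.321), and without control replicate 2 the fitted change of Lig1 was 0.14 in place of 0.27. A second probe set of Fen1 had a fitted difference of -0.15 where the one used had 0.27, so the direction of Fen1 depended on the probe set.

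Genes of nucleotide supply did not pass either. Rrm2, the regulated subunit of ribonucleotide reductase, read 9.39, 9.79, 9.23 and 9.94 in Bcl2l1-deleted replicates 1 to 4 and 9.16, 8.36, 9.17 and 9.14 in control replicates 1 to 4 (relative change 0.46, SE 0.23, adjusted p = 0.104, limma). The groups did not overlap, with Bcl2l1-deleted replicate 3 only just above the controls. Tk1, the S phase thymidine kinase, read 8.32, 8.48, 8.10 and 8.64 against 8.21, 7.30, 7.96 and 7.73 and overlapped (0.41, SE 0.21, adjusted p = 0.0998). Dut, which removes dUTP, read 8.33, 8.31, 7.95 and 8.21 against 7.76, 7.82, 7.68 and 7.54 without overlap (0.33, SE 0.15, adjusted p = 0.0643). Control replicate 2 was the highest control for Dut, so its low readings were not shared by every gene. Rrm1, the large subunit of the reductase, stood at 0.24 (adjusted p = 0.122). Tyms, thymidylate synthase, also differed little, at 8.50 to 8.67 in the Bcl2l1-deleted tumours and 8.44 to 8.57 in the controls (-0.11, adjusted p = 0.745, 95% interval of the fitted difference from -0.22 to 0.35).

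The E2F factors that drive and restrain these genes did not pass. E2f2, an activator, read 6.90, 6.56, 6.80 and 6.63 in Bcl2l1-deleted replicates 1 to 4 and 6.28, 5.73, 6.39 and 6.18 in control replicates 1 to 4, with no overlap (relative change 0.40, SE 0.18, adjusted p = 0.0704, limma). E2f8, a repressor, read 9.32, 8.92, 8.80 and 8.98 against 8.54, 7.96, 9.02 and 8.84 and overlapped widely (0.24, SE 0.23, adjusted p = 0.238), with a fitted change of 0.20 without control replicate 2 and 0.41 with it. E2f7, its partner repressor, read 8.33, 8.22, 8.16 and 8.47 against 7.90, 7.66, 8.15 and 8.08 (0.17, SE 0.16, adjusted p = 0.169). Bcl2l1-deleted replicate 3 and control replicate 3 nearly touched for E2f7. E2f1, the founding activator, stood at 0.03 (adjusted p = 0.337, 95% interval of the fitted difference from -0.11 to 0.51).

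The last group joined chromatin assembly, histone messenger RNA and fork protection. Tipin, which with Timeless steadies the fork, read 7.58, 7.73, 7.28 and 7.60 in Bcl2l1-deleted replicates 1 to 4 and 7.42, 5.77, 6.91 and 6.86 in control replicates 1 to 4 (relative change 0.64, SE 0.30, adjusted p = 0.104, limma). The large mean difference of Tipin rested in part on control replicate 2, and control replicate 1 overlapped the Bcl2l1-deleted arrays. Without control replicate 2 its fitted change was 0.48 in place of 0.81. Chaf1b, a subunit of the assembly factor CAF-1, read 9.47, 9.53, 9.39 and 9.64 against 9.29, 8.34, 9.05 and 9.27 without overlap (0.35, SE 0.21, adjusted p = 0.131), and its fitted change was 0.30 in place of 0.52 without control replicate 2. Uhrf1, which guides maintenance DNA methylation behind the fork, read 9.63, 9.54, 9.43 and 9.78 against 9.21, 8.69, 9.48 and 9.35 and overlapped (0.24, SE 0.19, adjusted p = 0.166), at 0.25 in place of 0.41 as fitted without that array. Chaf1a, the large subunit of CAF-1, stood at -0.01 and Slbp, which binds histone messenger RNA, at 0.06 (adjusted p = 0.536 and 0.422).

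**Figure D4:**
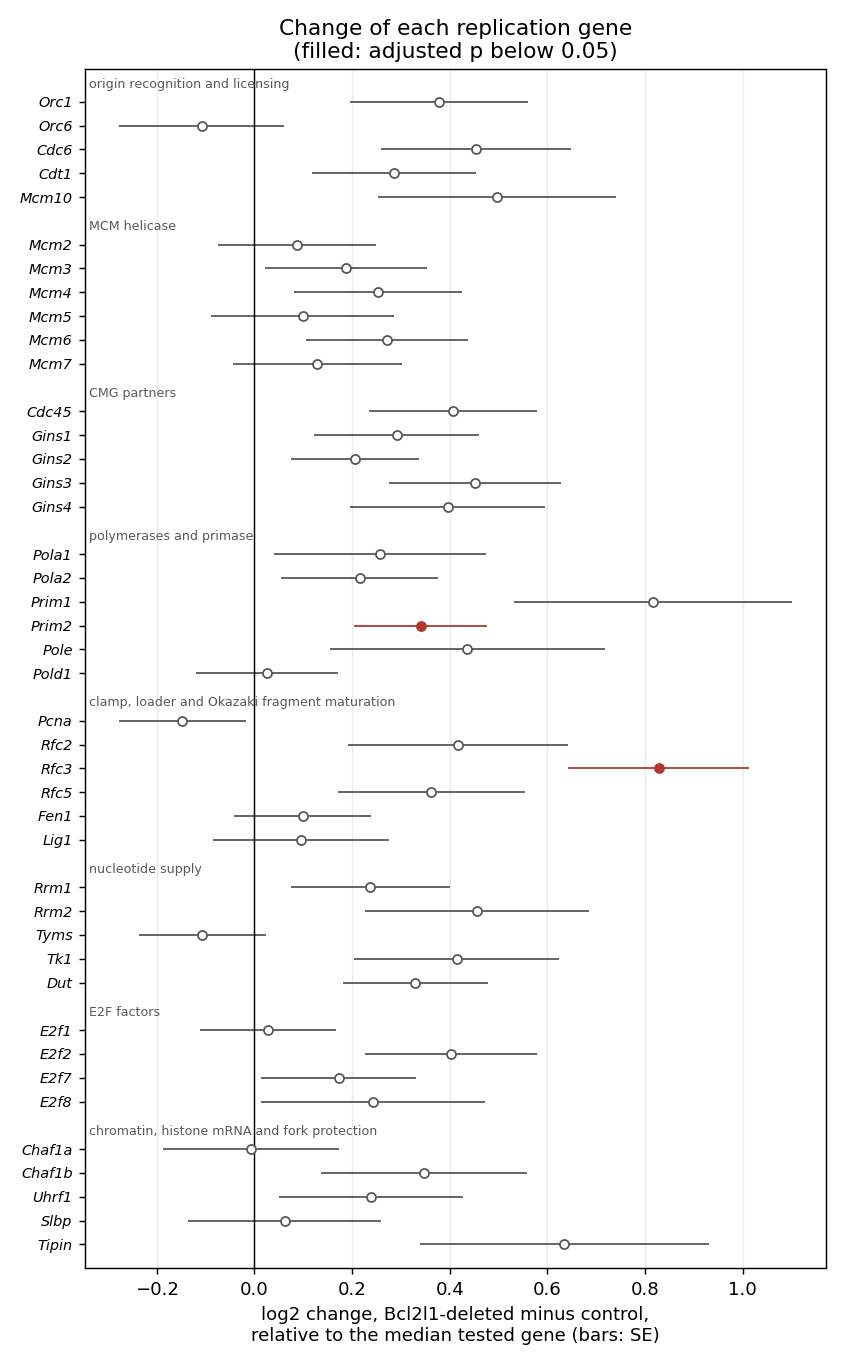
Relative log2 change of each replication gene (Bcl2l1-deleted minus control, less the change of the median tested gene; horizontal axis) with its SE as a bar, grouped by role, and filled where the adjusted p was below 0.05. Rfc3 at 0.83 and Prim2 at 0.34 are the filled points, while Orc6, Pcna, Tyms and Chaf1a lie below 0.

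The count of replication genes past the test moved with the arrays and the scaling, and the count over all genes moved with it. Without control replicate 2, 9 replication genes were higher (21.4%, with 8.95% over all genes), and without control replicate 1, 5 were (11.9%, with 10.4% over all genes). With weights for the arrays, 16 were higher (38.1%, with 15.7% over all genes). With arrays centred on the median of all probe sets 5 were higher (8.61% over all genes), and centring on the tested genes left 1 (2.51% over all genes). Without control replicate 2 and with centring on the genes tested together, a setting chosen after seeing the data, 2 were higher, Prim1 and Rfc3 (3.97% over all genes). Without Bcl2l1-deleted replicate 1, 2 or 4 none was higher (0.103%, 0.238% and 1.19% over all genes), and without Bcl2l1-deleted replicate 3 or control replicate 3 or 4 there was 1 (1.65%, 2.30% and 0.760% over all genes). None was lower in any alternative. Without control replicate 2 the fitted change of 14 of the 42 genes shrank by over 1.5 times. Leaving out any other single array moved at most 4 by as much. The 14 include genes with small changes, such as Pcna, at 0.025 with control replicate 2 and 0.0034 without it. This count was not made over all genes, whose median change went from 0.17 to 0.08 without control replicate 2. Over all genes the split of calls was 765 higher and 248 lower as reported, 390 and 699 with centring on the genes tested, 273 and 404 with the receptor median in the model, and 1337 and 171 with centring on all probe sets.

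**Figure D5:**
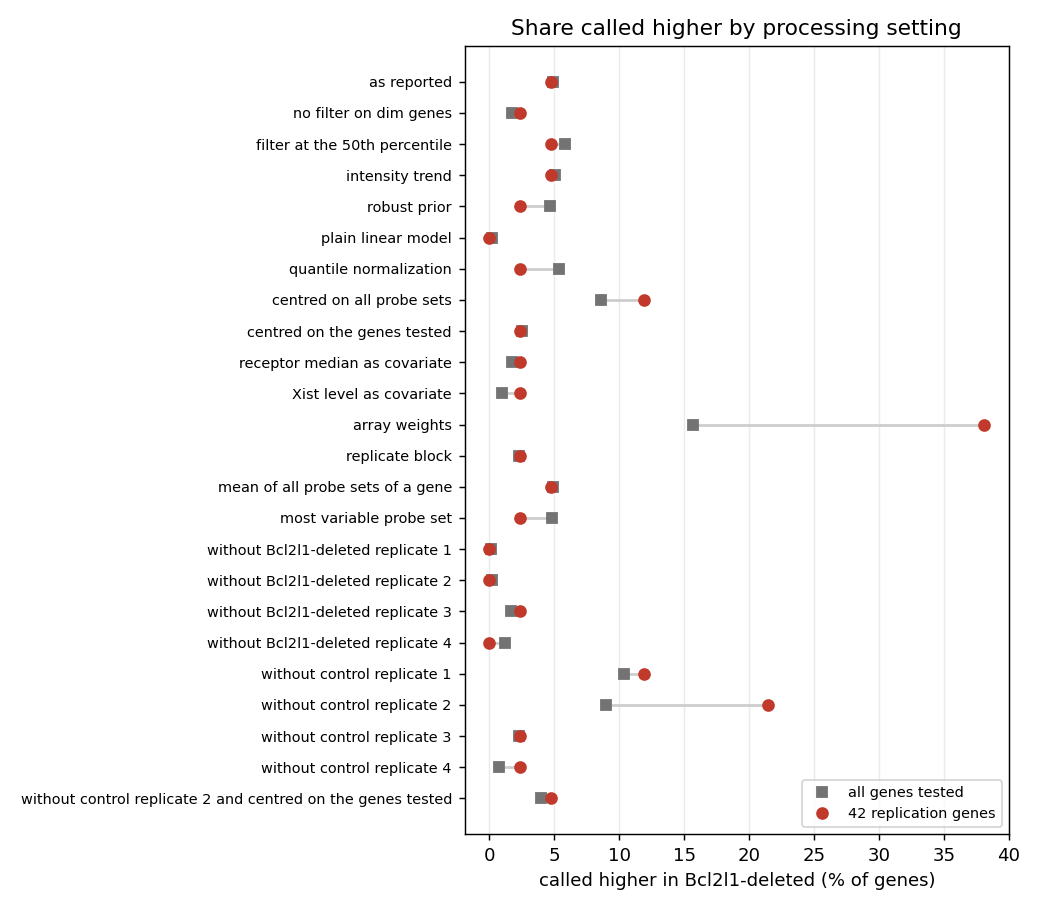
Percent of genes called higher in the Bcl2l1-deleted tumours (adjusted p below 0.05; horizontal axis) under each processing setting, for the 42 replication genes (circles) and all genes tested (squares). The circles lie well to the right of the squares with array weights (38.1% and 15.7%) and without control replicate 2 (21.4% and 8.95%), and close to them in the fit as reported (4.76% and 4.93%).

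Other genes of replication were read from a second list. Of 58 such genes 54 were tested. The test was passed by 5, all of which rose, and missed by 49, where 4.93% of all genes passed in this direction, and the median relative change was 0.30. Rpa3, a subunit of the single-strand binding protein RPA, rose by 0.57 (relative log2 change, SE 0.18, adjusted p = 0.0390, limma), and Rnaseh2b, a subunit of the nuclease that removes RNA from DNA, by 0.57 (SE 0.19, adjusted p = 0.0466). Dbf4, the activator of the Cdc7 kinase, rose by 0.54 (SE 0.18, adjusted p = 0.0447). Ccne1, cyclin E1, rose by 0.53 (SE 0.17, adjusted p = 0.0403), and Cdk2, the kinase it activates, by 0.40 (SE 0.13, adjusted p = 0.0342). None of the 5 remained past the threshold with arrays centred on the genes tested. At the same time 15 of the 54 were higher without control replicate 2, where 8.95% of all genes were. Without control replicate 1 there were 11 (10.4% over all genes), and without control replicate 3 there was 1 (2.30% over all genes). None was higher without control replicate 4 or when any single Bcl2l1-deleted array was left out. Of the 54, 46 lay above the median tested gene and 8 below it, where 7763 of all 15526 tested genes lay above. Pole2, a subunit of polymerase epsilon, had the largest relative change of this list, 0.83, without passing (adjusted p = 0.0662, limma). Mcm8, Donson and Timeless lay below the median of the list, at 0.09, 0.03 and 0.13. Control replicate 2 read 5.39 for Pole2, where the other controls read 6.35 to 7.06, so its large mean difference rested in part on that array.

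Of 20 mitosis genes 19 were tested, 3 rose and none fell, where 4.93% of all genes rose, with a median relative change of 0.33. These were Aurkb, a kinase of chromosome segregation (0.45, SE 0.14, adjusted p = 0.0354, limma), Bub1b, of the spindle checkpoint (0.45, SE 0.16, adjusted p = 0.0492), and Cdc20, the activator of the anaphase-promoting complex (0.39, SE 0.15, adjusted p = 0.0486). None of the mitosis genes passed with arrays centred on the genes tested, without control replicate 3 or 4, or without any single Bcl2l1-deleted array. Without control replicate 2, 7 were higher, where 8.95% of all genes were. Relative to the median tested gene 18 of the 19 were above 0, up to 0.59, where 7763 of all 15526 tested genes were. Mki67, the standard mark of cycling cells, was the 1 mitosis gene below 0, at -0.12 (adjusted p = 0.872, limma).

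Markers of other cell types moved between the same tumours, and their part in the results was not tested. The counts below are to be read against 4.93% of all genes called higher and 1.60% called lower. They are those of the deposited scale, and with centring on the genes tested 390 of all genes were higher and 699 lower. Of 11 markers of differentiating granule neurons, which have left the cell cycle, 7 fell, and their summed level, as log2, was 11.49 to 11.86 in the Bcl2l1-deleted tumours and 12.14 to 12.82 in the controls. Of 13 markers of microglia and macrophages 8 rose, with a summed level of 12.29 to 12.54 against 10.83 to 11.93. Of 7 markers of endothelium and fibroblasts 6 rose (10.78 to 11.19 against 9.43 to 10.08). The 12 markers of granule neuron progenitors and tumour cells did not pass, with a summed level of 13.87 to 14.01 against 13.51 to 14.07 and a median relative change of -0.27. Oligodendrocyte markers had 2 of 7 lower (9.21 to 10.43 against 10.27 to 11.59), astrocyte markers 2 of 5 higher (12.38 to 12.92 against 11.13 to 12.45) and choroid plexus markers 2 of 4 lower (7.34 to 8.04 against 11.10 to 11.61). The last sum was carried by Ttr, at a mean of 6.07 against 11.20, while Folr1, Kl and Clic6 had fitted changes of -0.97, -0.58 and -0.66. The lowest marker value was 2.28, for Gabra6 on Bcl2l1-deleted replicate 4, where the median of the chemosensory receptor genes was 2.92. Detection of every marker on every array was thus not shown.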

How the data were processed

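Expression was measured on 8 arrays, 4 per group. The deposited values are log2 RMA expression values that the authors derived in Partek, per the labels. Its version, its options and the genome build were not given in the sources used here. RMA includes background correction, normalization between arrays and a summary over probes.

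Of 41345 probe sets, 23521 named 1 symbol, 1814 several and 16010 none, and symbols were checked through Entrez identifiers (GRCm38.p6 gene table, 23328 matched, 0 changed). Probe sets naming several symbols were left out, and 1 probe set stood for a gene. Genes whose mean did not exceed the 30th percentile (4.38) were not tested. The test was that of limma 3.58.1, run under R 4.3.3 with lmFit and eBayes, two-sided and without covariates, with Benjamini-Hochberg adjustment over 15526 genes. The procedure was run on simulated data, where it recovered 71% of 100 changes of log2 size 1 and 96% of 100 of size 2, with 11 false calls. Smaller changes were not simulated. All simulated arrays had the same variance for a gene, with none like control replicate 2, so the simulation does not show the performance on these arrays. Replication genes and lists were chosen with earlier results of these data known. Values per array were given for genes past the threshold and for up to 3 genes per role with the largest difference, and for Pcna, chosen after its values were seen. From the lists of other replication genes and mitosis genes, those past the threshold were named, up to 6 per list. Pole2, Mcm8, Donson, Timeless and Mki67 were chosen after their values were seen. Cell type markers were given as counts and sums, and Atoh1, Gabra6, Ttr, Folr1, Kl and Clic6 were named outside that rule. A plain sum of unlogged values, given as log2, is the summed level of a marker list. Alternatives covered the filter, the variance model, the scaling of arrays, covariates, array weights, a replicate block, the choice of probe set and leaving out each array.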

Additional observations from a re-analysis of the deposited data

Results flagged for a closer look

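In 5 of 100 sets of 4 values (the groups of each replication gene and of the other named replication and mitosis genes that passed), 1 array stood far from the other 3, and chance gives about 1 in 20 such sets. Control replicate 2 was the distant array in 4 of them. It read 8.89 for Cdt1 (9.36 to 9.40 on the other controls), 9.87 for Mcm7 (10.45 to 10.52), 7.78 for Rfc5 (8.41 to 8.54) and 8.36 for Rrm2 (9.14 to 9.17). The fifth was Pola2, at 9.99 on Bcl2l1-deleted replicate 4 and 9.67 to 9.72 on the other Bcl2l1-deleted arrays.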

How the results depend on the processing

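Counts give replication genes higher, other replication genes higher and all genes called in either direction, in that order, 2, 5 and 1013 as reported. They were 1, 0 and 548 with no filter on dim genes, 0, 1 and 43 in a plain linear model, 1, 0 and 200 with the Xist level as a covariate, 16, 17 and 3494 with array weights and 5, 11 and 1508 centred on all probe sets. Xist read 10.08, 9.63, 4.91 and 4.70 in Bcl2l1-deleted replicates 1 to 4. In control replicates 1 to 4 it read 10.54, 9.89, 4.53 and 10.33, so high and low readings occurred in both groups, in unequal number. Quantile normalization gave 1, 3 and 1121, the receptor median 1, 2 and 677, centring on the genes tested 1, 0 and 1089, and the centring without control replicate 2 gave 2, 2 and 1793. A robust prior and the most variable probe set each gave 1 replication gene, where 4.68% and 4.82% of all genes were called higher. The replicate block gave 1, 0 and 508. The share of all genes called higher was 1.75% with no filter, 0.238% in the plain linear model and 0.953% with the Xist level. It was 5.39% with quantile normalization, 1.76% with the receptor median and 2.31% with the replicate block. Deviations of same-numbered arrays correlated at 0.04, 0.02, -0.13 and 0.05, none the best match. No pairing was seen in these values, and 4 correlations cannot exclude a weak one. Leaving out single arrays gave 0 to 9, 0 to 15 and 20 to 2100. No replication gene was lower in any of the 23 alternatives, and 33 of 42 stayed above 0 in every one. The 9 others turned below 0 without passing. Orc6 was -0.083 with quantile normalization, -0.19 with centring on the genes tested, -0.019 with the receptor median, -0.045 with array weights and -0.11 centred without control replicate 2, and -0.013 to 0.21 without single arrays (the lowest without control replicate 4). Pcna was -0.022, -0.23, -0.011 and -0.13 with quantile normalization, centring, the receptor median and centring without control replicate 2. Tyms was -0.065, -0.19 and -0.087 with quantile normalization, centring and centring without control replicate 2, and Chaf1a -0.092 and -0.044 with the last pair. Centring also gave Pold1 -0.060, E2f1 -0.058 and Slbp -0.024, centring without control replicate 2 gave Mcm5 -0.023, and the most variable probe set gave Fen1 -0.15. The cause was not tested. Precision is limited by the 4 arrays per group.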
